A study of Mus musculus with 72 samples.

Results

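Kidneys of EGFR DEL19 mice given the CMV-siRE circuit were compared with kidneys of EGFR DEL19 mice given the CMV-scrR circuit, the scrambled control. The comparison rests on 8 RNA-seq libraries of the 72 in the series, 4 from each circuit, and was fitted on these 8 only. The members were chosen by their labels, as the kidney libraries numbered 1 to 4 of each circuit. In the series, 6 tissues (tumour, lung, liver, spleen, kidney and thymus) were sampled under 3 circuits; a further circuit, CMV-GE11-siRE, gave 4 more kidney libraries, which do not enter the comparison.

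All mice, controls included, carried the EGFR DEL19 transgene, had received doxycycline for 25 days so that lung tumours formed, and were then injected into a vein with a circuit at 10 mg/kg every 2 days, 7 times in all. Kidneys are labelled Day 14. The promoter and cell type that drive the transgene, the sex and age of the mice and the hour of harvest are not given in the labels used here. Whether each library is a separate animal is not stated, so the p-values below measure only the spread between these libraries.

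The circuits are DNA constructs whose transcript holds a small interfering RNA; in the study's title the RNA is packed into small extracellular vesicles inside the body and is aimed at EGFR in lung cancer cells. EGFR is a receptor tyrosine kinase that signals through RAS and the MAP kinases. In the kidney it is present along the tubule, its ligand EGF is made in the thick ascending limb and the distal convoluted tubule, and EGF acting there promotes magnesium uptake through the channel TRPM6. The kidney also runs a strong circadian clock, in which BMAL1 with CLOCK or NPAS2 switches on the Per, Cry, Nr1d and Dbp genes at E-boxes, PER and CRY proteins block that activity, and REV-ERB and ROR receptors set the Bmal1 gene itself.

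The deposited values are normalized counts per gene. Column totals ran from 17082108 to 19304339 and 18550 to 19022 identifiers were above 0 in each library. Markers of podocytes, proximal tubule, thick limb and collecting duct, Nphs1, Slc34a1, Umod and Aqp2 among them, were present in all 8 libraries. 1 library of the CMV-siRE group stood apart from its own group. On the leading principal component, which held 33.6% of the variance, the controls lay at -13.3, -18.5, -25.1 and -38.9, CMV-siRE replicates 1, 2 and 4 at 44.6, 27.8 and 41.1, and CMV-siRE replicate 3 at -17.6, among the controls.

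Across the kidney transcriptome, 1116 of 14740 genes tested (7.57%) passed an adjusted p of 0.05 in limma's moderated test on log2(normalized count + 1), 473 of them higher with CMV-siRE (3.21%) and 643 lower (4.36%). Most differences were small. The median size among genes that passed was 0.55 on the log2 scale, and 80 genes were higher and 74 lower by 1 or more. The median over all genes tested was -0.01. Scaled by the total without mitochondrial genes instead, 322 genes were higher and 705 lower, so that 31.4% of those that passed were higher in place of 42.4%. In 18.6% of genes the 4 CMV-siRE libraries and the 4 controls did not overlap (8.39% with CMV-siRE above, 10.2% below), and 1092 of the 1116 genes that passed were among these. Fold changes below are on the log2(normalized count + 1) scale, which understates the change of low genes.

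The count of genes depended on which libraries entered. When the 4 CMV-GE11-siRE kidney libraries shared the estimate of the spread, none of the 14740 genes passed in limma (1449 had an unadjusted p under 0.05, against 4062 in the fit of 8), and 37 passed with CMV-GE11-siRE replicate 4 left out. Without CMV-siRE replicate 3 it was 2189 of 14627 tested, 976 higher and 1213 lower, and 1084 of them were among the 1116. List counts given below without that library stand beside these larger shares of all genes. Leaving out any other single library gave between 60 (without CMV-scrR replicate 4) and 653 (without CMV-siRE replicate 4). Of 113 genes that passed and are named here, 55, 37, 44 and 26 still passed without CMV-scrR replicates 1 to 4, and 41, 59, 110 and 73 without CMV-siRE replicates 1 to 4. Among them 26 passed in all 8 of these fits, and none changed direction in any. A gene is called lost below where its adjusted p reached 0.05 or more without 1 library.

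**Figure D1:**
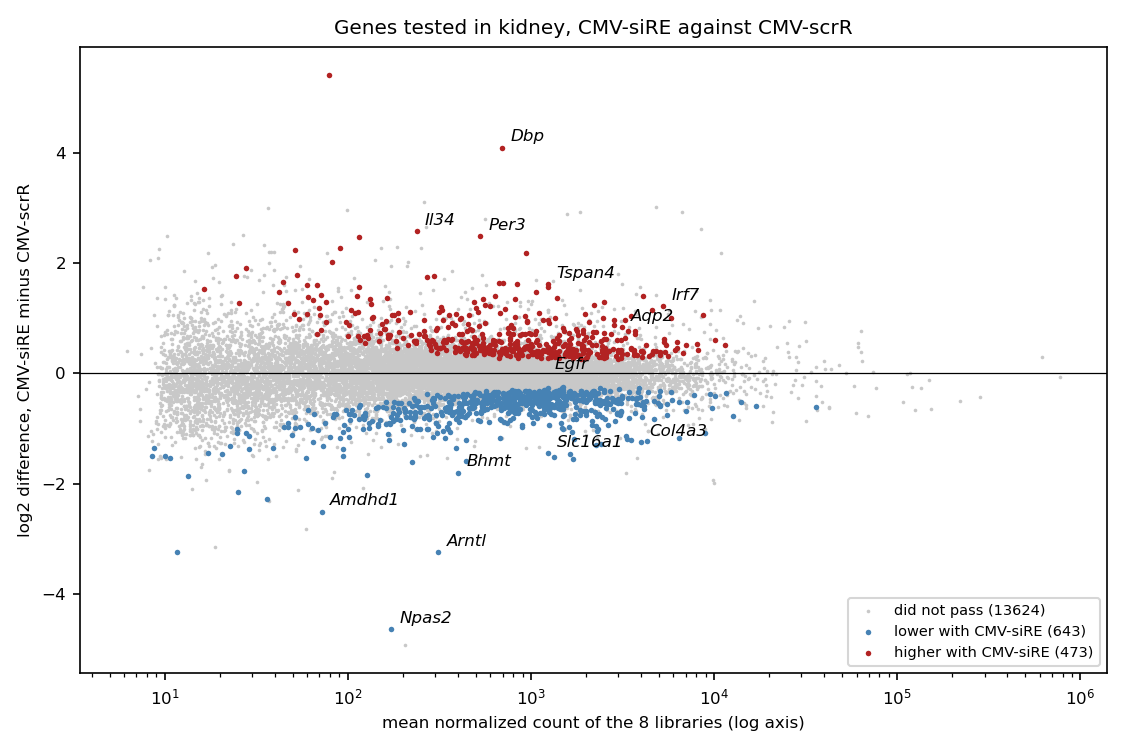
Mean normalized count of the 8 libraries (x axis, log scale) against the log2 difference, CMV-siRE minus CMV-scrR (y axis), for the 14740 genes tested; red points are the 473 genes higher and blue points the 643 lower. Dbp at 4.09 and Per3 at 2.49 lie far above 0, Npas2 at -4.64 and Arntl at -3.25 far below, and Egfr at -0.04; the red point at 5.40 is the uncertain identifier ENSMUSG00000116207.1.

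**Figure D2:**
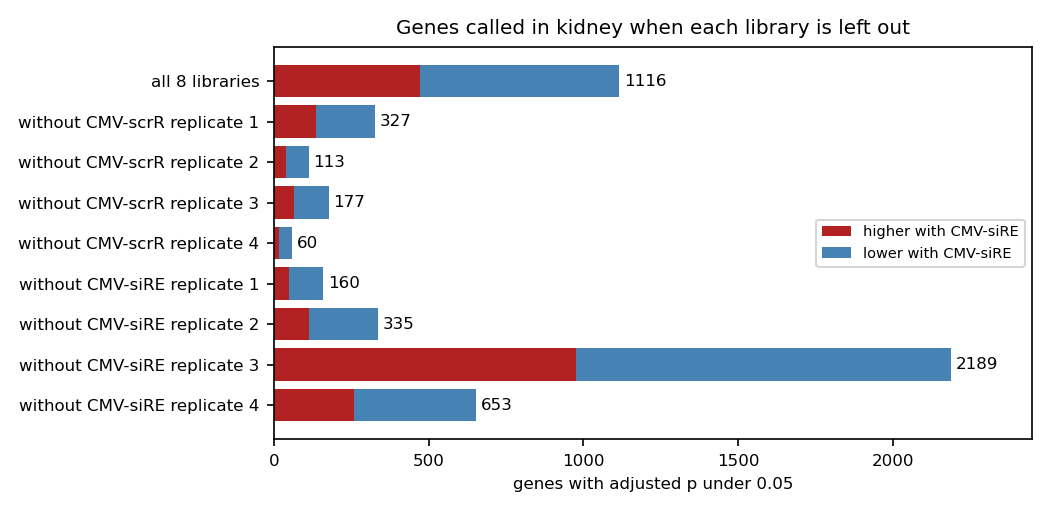
Number of genes with an adjusted p under 0.05 (x axis) with all 8 libraries and without each in turn (rows), split into higher (red) and lower (blue) with CMV-siRE. The count is 1116 with all libraries, 2189 without CMV-siRE replicate 3 and 60 without CMV-scrR replicate 4.

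The circadian clock held some of the largest differences. Of 13 core clock genes, 5 rose and 3 fell, and of 11 clock output genes 7 rose and 1 fell, against 7.57% of all genes in either direction. The positive arm of the loop was low with CMV-siRE and its targets were mostly high. Medians over the lists were 0.89 and 0.91, beside -0.01 for all genes. Several of these genes carry clock motifs in the window from 250 bases before to 50 bases after the gene start, and the 4 windows printed next show them in members that rose and in the member that defines the positive arm. The sequences come from RefSeq, build GRCm38.p6, on the gene's strand. Capitals mark the motif, which is the D-box TTATGNAA in Per3, the E-box CACGTG in Cry1 and Bhlhe41, and the ROR element AANTAGGTCA in Arntl.
Per3 (chr4:151044616-151044915, minus strand): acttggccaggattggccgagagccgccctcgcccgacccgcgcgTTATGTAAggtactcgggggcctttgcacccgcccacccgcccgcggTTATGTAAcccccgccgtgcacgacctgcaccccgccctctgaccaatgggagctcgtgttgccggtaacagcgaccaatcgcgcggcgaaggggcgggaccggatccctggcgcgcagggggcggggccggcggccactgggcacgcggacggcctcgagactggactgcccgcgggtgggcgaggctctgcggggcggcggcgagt
Cry1 (chr10:85185005-85185304, minus strand): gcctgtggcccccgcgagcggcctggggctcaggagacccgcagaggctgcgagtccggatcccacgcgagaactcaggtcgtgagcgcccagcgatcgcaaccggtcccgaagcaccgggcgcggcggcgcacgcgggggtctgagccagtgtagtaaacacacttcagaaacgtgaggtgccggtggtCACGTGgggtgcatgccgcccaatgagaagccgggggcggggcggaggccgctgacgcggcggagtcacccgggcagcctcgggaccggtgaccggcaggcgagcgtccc
Bhlhe41 (chr6:145865371-145865670, minus strand): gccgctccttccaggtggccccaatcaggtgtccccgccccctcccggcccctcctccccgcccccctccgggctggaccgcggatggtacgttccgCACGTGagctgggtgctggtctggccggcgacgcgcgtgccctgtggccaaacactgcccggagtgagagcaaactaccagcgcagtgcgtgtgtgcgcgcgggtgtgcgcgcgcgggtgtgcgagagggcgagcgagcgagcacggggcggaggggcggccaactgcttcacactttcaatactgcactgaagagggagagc
Arntl (chr7:113207261-113207560, plus strand): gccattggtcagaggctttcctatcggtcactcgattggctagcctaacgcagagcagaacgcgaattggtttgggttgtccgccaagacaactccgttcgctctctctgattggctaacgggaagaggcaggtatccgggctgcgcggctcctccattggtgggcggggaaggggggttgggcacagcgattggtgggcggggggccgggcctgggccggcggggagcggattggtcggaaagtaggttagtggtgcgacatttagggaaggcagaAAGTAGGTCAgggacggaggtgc

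The D-boxes of Per3 start 205 and 158 bases before the gene start, the E-boxes of Cry1 and Bhlhe41 60 and 153 bases before it, and the ROR element of Arntl 27 bases after it. Both strands were searched. Of 32851 promoter windows of this length, 7.15% held the E-box, 3.38% the D-box and 0.219% the ROR element. RefSeq windows matched 11 of the 13 core clock genes, of which 3 held an E-box, 2 a D-box and 1 a ROR element, and 9 of the 11 output genes, of which 3 held an E-box. The windows of Dbp, Npas2, Clock, Cry2, Nr1d1, Nr1d2, Hlf and Nfil3 held none of these motifs. A match is a description of the letters and not a bound site.

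In the positive arm, Arntl, which encodes BMAL1, read 554, 540, 553 and 591 normalized counts in control replicates 1 to 4 and 104, 68.1, 30.2 and 52.9 in CMV-siRE replicates 1 to 4. Every CMV-siRE library lay far below every control, including replicate 3, the library that otherwise sat among the controls. The fall was 9.48-fold (log2 -3.25, SE 0.31, limma adjusted p = 0.00227). Npas2, a paralogue of CLOCK that also pairs with BMAL1, read 289, 375, 294 and 369 in the controls and 15.8, 5.77, 11.8 and 20.5 with CMV-siRE, a fall of 24.9-fold (log2 -4.64, SE 0.33, limma adjusted p = 4.36e-04). It had the most negative log2 difference among the genes named by the rule for named genes. Clock itself fell less, from 859 ± 92.4 to 586 ± 63.9 (SD, n = 4 libraries each; log2 -0.55, limma adjusted p = 0.0264).

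Among the genes that BMAL1 drives, Dbp, a transcription factor that binds D-boxes and cycles with a large amplitude, read 57.6, 55.8, 109 and 76.3 in the controls and 871, 1181, 2108 and 1096 with CMV-siRE. The groups did not overlap, and CMV-siRE replicate 3 was the highest. The rise was 17.0-fold (log2 4.09, SE 0.29, limma adjusted p = 4.36e-04). Per3, a period gene whose protein belongs to the inhibitory complex, rose from 132, 154, 164 and 178 to 696, 911, 1213 and 782 (5.62-fold, limma adjusted p = 4.36e-04). Cry1 and Cry2, which encode the cryptochrome repressors, rose 2.97-fold and 1.85-fold. Bhlhe41 and Bhlhe40, the repressors DEC2 and DEC1, rose 4.03-fold and 2.11-fold, and Bhlhe41 read 27.9, 43.9, 20.99 and 33.3 against 91.6, 172, 92.9 and 171.

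Not all clock genes moved. Per1 read 696, 596, 1074 and 625 in the controls and 1323, 1740, 2037 and 714 with CMV-siRE (log2 0.90, SE 0.31), and the groups overlapped because CMV-siRE replicate 4 lay within the control range. Per2 varied more between controls, from 103 to 1140, than between the groups (log2 0.49, SE 0.60). Ciart, whose product represses BMAL1-CLOCK, had a log2 difference of 1.71 with an SE of 0.55 and did not pass. Nr1d1, the gene for REV-ERB alpha, read 1319, 1289, 2070 and 1964 against 914, 1413, 1881 and 984 (log2 -0.38, SE 0.25), while its relative Nr1d2 rose 1.95-fold. Limma adjusted p values of these 4 genes that did not pass ran from 0.0833 (Ciart) to 0.637 (Per2).

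The D-box activators Tef and Hlf, relatives of Dbp, rose 2.06-fold and 1.66-fold. Nfil3, which represses at the same D-boxes, fell from 287 ± 69.1 to 119 ± 36.6 (SD, n = 4 libraries each; log2 -1.28, SE 0.25, limma adjusted p = 0.0252). Wee1, a kinase that holds back entry into mitosis, read 225, 258, 265 and 255 against 491, 556, 590 and 484. These values did not overlap and were tight within each group (2.11-fold, limma adjusted p = 0.00227). Fkbp5, a chaperone of the glucocorticoid receptor, passed at 1.88-fold although the groups overlapped.

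Without single libraries, Arntl, Npas2, Dbp, Per3, Bhlhe40 and Wee1 passed in all 8 fits. Bhlhe41 was lost without CMV-scrR replicate 4 alone (adjusted p = 0.054), Tef and Nr1d2 without CMV-scrR replicate 2 or 4 (up to 0.0648 and 0.0658), and Nfil3 without CMV-scrR replicate 2, 3 or 4 (up to 0.0819). Cry1 was lost without CMV-scrR replicate 3 or 4 or CMV-siRE replicate 1 or 2 (up to 0.0738). Clock and Cry2 were lost in 5 of the 8 fits (up to 0.0763 and 0.0967), Hlf and Fkbp5 in 6 (up to 0.112 and 0.131). The clock output count ranged from 3 higher without CMV-scrR replicate 4 to 8 higher and 1 lower without CMV-siRE replicate 4. The core clock count ranged from 2 higher and 2 lower without CMV-scrR replicate 4 to 6 higher and 3 lower without CMV-siRE replicate 4. The same shift was not seen in every kidney given an EGFR circuit. In the CMV-GE11-siRE libraries 1 to 4, Dbp read 78.8, 1321, 52.9 and 790, Arntl 610, 82.8, 675 and 116, and Npas2 423, 10.8, 296 and 33.2. In these genes replicates 1 and 3 lay near the controls of this comparison and replicates 2 and 4 near its CMV-siRE libraries. Other clock genes did not all split this way. In replicate 4, Nfil3 read 529, above every control, Nr1d2 268, below every library of both groups, and Hlf 1632, within the control range. Cry1 read 99.9 and 121 in replicates 1 and 3, above every control. Those values are given as a description and were not tested.

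**Figure D3:**
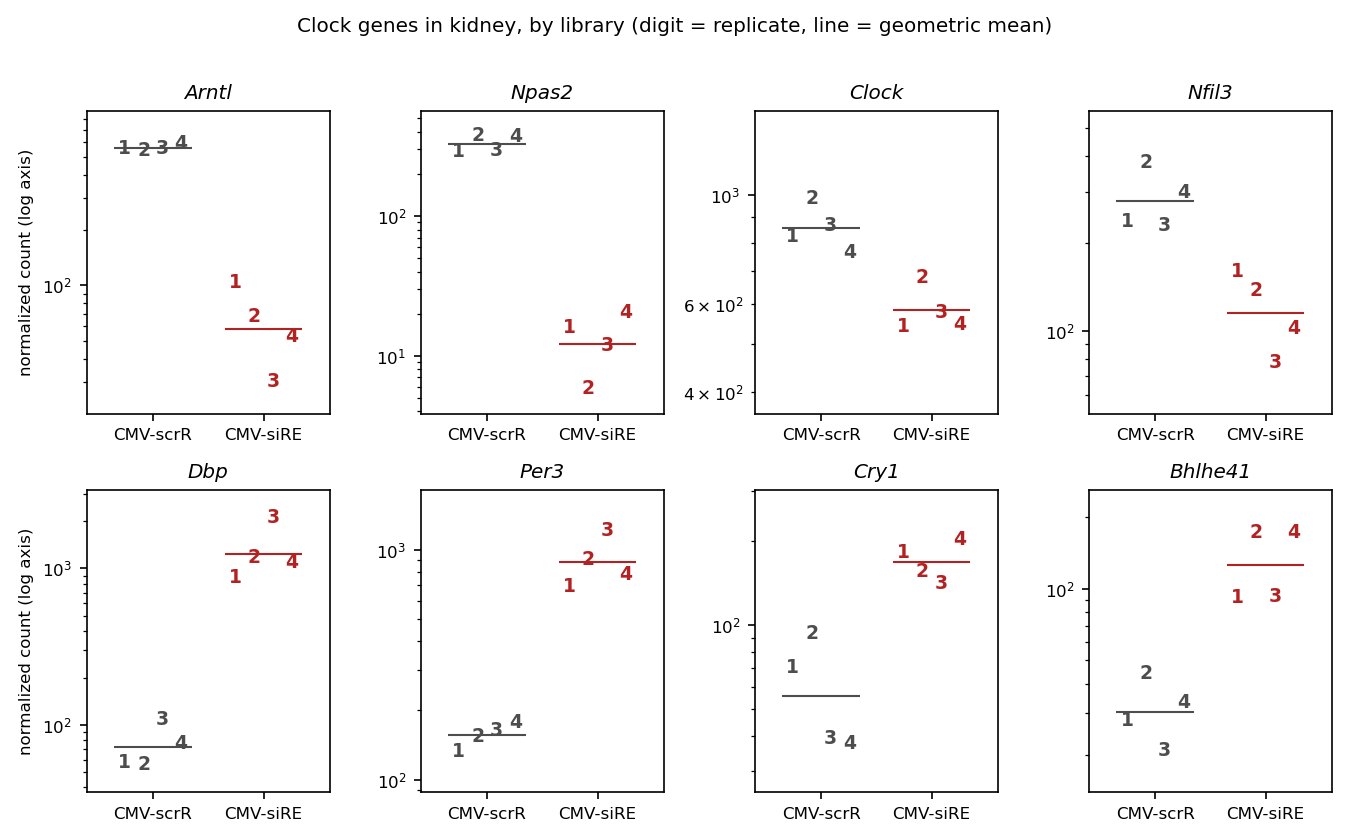
Normalized counts (y axis, log scale) of 8 clock genes in each library, with CMV-scrR in grey and CMV-siRE in red; the digit is the replicate and the line the geometric mean. Arntl, Npas2, Clock and Nfil3 are lower and Dbp, Per3, Cry1 and Bhlhe41 higher in all 4 CMV-siRE libraries than in any control.

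Mouse Egfr, on chromosome 11, showed no difference beyond the spread of the libraries. It read 1134, 1187, 1313 and 1270 in the controls and 1020, 1203, 1149 and 1441 with CMV-siRE, 1226 ± 80.5 against 1203 ± 176 (SD, n = 4 libraries each), and the lowest and the highest library were both CMV-siRE. The log2 difference was -0.04 (SE 0.11), with an exact two-sided permutation p of 0.8; the smallest p that 4 against 4 libraries can give is 0.0286. The table lists mouse genes, so the values are of the mouse gene, and reads from the EGFR DEL19 transgene were not analysed here.

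Among 10 genes of the EGFR family and its adaptors, 1 fell and none rose, beside 4.36% lower and 3.21% higher of all genes. Erbb3, a kinase-impaired receptor that signals through its partners, read 2191, 2337, 2293 and 2574 against 1378, 1843, 1802 and 1584 (log2 -0.51, SE 0.10, limma adjusted p = 0.0287). It was lost in 5 of the 8 fits that left out a library, those without any 1 control or without CMV-siRE replicate 1, with an adjusted p up to 0.0912. Erbb2 also lay below the controls in all 4 libraries, 2259 ± 208 against 2649 ± 131 (SD, n = 4 libraries each), but did not pass (log2 -0.23, limma adjusted p = 0.117). Erbb4, a receptor for neuregulins, had a log2 difference of -0.36 (SE 0.15).

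Of 10 EGFR ligand genes, 6 were high enough to test and none passed. Egf read 48999, 53395, 50511 and 49251 in the controls and 26125, 41207, 49971 and 21382 with CMV-siRE. The controls were tight, CMV-siRE replicate 3 lay among them, and replicates 1 and 4 lay far below (log2 -0.63, SE 0.26, limma adjusted p = 0.157). Nrg1, a neuregulin, read 238 to 282 in the controls and 441, 346, 238 and 666 with CMV-siRE, so replicate 3 again lay with the controls. Without CMV-siRE replicate 3, 2 ligand genes passed as higher and 1 as lower.

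Genes that report on MAP kinase signalling were higher where they differed. Of 14 feedback and ETS target genes, 4 rose and none fell, against 3.21% higher and 4.36% lower of all genes; the list median was 0.42. The count was 1 without CMV-scrR replicate 2 or 4 or CMV-siRE replicate 1, and 4 higher and 1 lower without CMV-siRE replicate 3. Ier3, an immediate early survival gene, read 300, 305, 452 and 322 against 1211, 1001, 729 and 753 (2.66-fold, SE 0.19 on the log2 scale, limma adjusted p = 0.00905) and passed in all 8 fits without 1 library. Ccnd1, the gene for cyclin D1, rose 1.55-fold, from 4183 ± 392 to 6475 ± 672 (SD, n = 4 libraries each). Etv4, an ETS transcription factor, rose 2.08-fold, and Spry4, a feedback inhibitor of RAS signalling, 1.49-fold. Ccnd1 was lost without CMV-scrR replicate 2 or 4 or CMV-siRE replicate 1 (adjusted p up to 0.0572), and Etv4 and Spry4 in all fits but the one without CMV-siRE replicate 3 (up to 0.0934 and 0.0967).

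Markers of podocytes, the cells that hold the filtration slit, were mostly lower. Of 10 markers, 4 fell and none rose, with a median of -0.34, and of all genes 4.36% fell. The differences were negative in 8 markers and positive in 2, of which 1 had all CMV-siRE libraries above all controls. The summed level of the list was 16987 to 19048 in the controls and 14059 to 14969 with CMV-siRE, without overlap, as in 10.2% of single genes with CMV-siRE below. Nphs1 (nephrin) read 1694, 1389, 1717 and 1669 against 936, 1148, 1200 and 970. This slit protein's gene was thus lower in each CMV-siRE library than in any control, replicate 3 included, by log2 -0.61 (limma adjusted p = 0.0207). Synpo, which organises podocyte actin, fell 1.46-fold, and Wt1, the transcription factor of podocyte identity, 1.33-fold. In whole tissue, fewer cells of a type and less RNA per cell cannot be told apart. Synpo was lost without CMV-scrR replicate 4 alone (adjusted p = 0.0638), Nphs1 in 4 of the 8 fits (up to 0.0745) and Wt1 in 7 (up to 0.116). The count of podocyte markers that fell ran from 0 without CMV-scrR replicate 4 to 5 without CMV-siRE replicate 3. Up to 1 marker passed as higher without 1 library.

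The type IV collagen chains of the mature glomerular basement membrane fell with them. Col4a3 read 4787, 6247, 5001 and 6411 in the controls and 2320, 2026, 2994 and 2124 with CMV-siRE, 2.38-fold lower (log2 -1.25, SE 0.15, limma adjusted p = 0.00486), and its partner Col4a4 fell from 5996 ± 396 to 3377 ± 414 (SD, n = 4 libraries each; 1.78-fold, limma adjusted p = 0.0066). The 2 genes passed in all 8 fits without 1 library. Col4a5, the third chain of that network, fell 1.57-fold and was lost in 7 of the 8 fits (adjusted p up to 0.11). Col4a1, of the ubiquitous network, read 5759 ± 660 against 5358 ± 1591 (SD, n = 4 libraries each; log2 -0.14). This family of 6 genes was picked after its values were seen, so its count of 3 lower, beside 4.36% of all genes, is a description.

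Along the proximal tubule, which reabsorbs most of the filtered load, all 12 early-segment genes had negative differences, with a median of -0.62 (-0.39 without CMV-siRE replicate 4 and -0.88 without replicate 3), and none passed. The spread within the CMV-siRE group was wide. Slc34a1, the sodium-phosphate cotransporter, read 151387, 130718, 148837 and 168905 in the controls and 73644, 125579, 152221 and 54488 with CMV-siRE, so replicates 1 and 4 lay well below every control and replicates 2 and 3 did not (log2 -0.67, SE 0.35, limma adjusted p = 0.242). Lrp2 (megalin, the endocytic receptor of the brush border) read 18635 and 18992 in CMV-siRE replicates 1 and 4 and 33156 and 47970 in replicates 2 and 3, against 37133 to 49718 in the controls. Gatm, the first enzyme of creatine synthesis, was the most reduced of the list, 14749 ± 1436 against 5174 ± 4175 (SD, n = 4 libraries each; log2 -1.99, SE 0.60, limma adjusted p = 0.0689). The organic anion transporters Slc22a6 and Slc22a8 had differences of -0.44 and -0.58 and did not pass. Without CMV-siRE replicate 3, 7 of the 12 genes passed as lower, against 1213 of all 14627 genes tested in that fit. The late segment did not follow. There 6 of 9 genes tested had positive differences, with a median of 0.22 (-0.02 to 0.39 without 1 library). In that list 1 gene passed, as lower, against 4.36% lower of all genes. It was the lowest member, Slc5a8, a sodium-coupled monocarboxylate transporter. Slc5a8 fell from 2101 ± 55.5 to 1131 ± 478 (SD, n = 4 libraries each, log2 -0.98, limma adjusted p = 0.0413) and was lost in 7 of the 8 fits (up to 0.107).

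Distal segments differed gene by gene. Of 12 genes of the distal convoluted and connecting tubule, 3 fell and none rose, with a median of -0.39, beside 4.36% lower of all genes. Trpm6, the magnesium channel, read 926, 954, 892 and 951 against 491, 556, 726 and 538 (log2 -0.70, SE 0.12, limma adjusted p = 0.0174). The control values were nearly equal and all CMV-siRE values were below them. Wnk1 and Klhl3, which control the thiazide-sensitive sodium chloride cotransporter, fell 1.44-fold and 1.45-fold. Trpm6 was lost without CMV-scrR replicate 2 or 4 (adjusted p up to 0.0658), Klhl3 in 5 of the 8 fits (up to 0.0919) and Wnk1 in 7 (up to 0.109), and the count of 3 became 6 without CMV-siRE replicate 3 and 0 without CMV-scrR replicate 2 or 4. In the thick limb, 1 of 10 genes fell, against 4.36% lower of all genes, the claudin gene Cldn10 (log2 -0.68, limma adjusted p = 0.0393). Another claudin of that segment, Cldn19, rose 1.48-fold (0.0396). They were lost in 5 and 6 of the 8 fits (up to 0.107 and 0.103). Umod, the gene for uromodulin, read 51003 ± 7469 against 71454 ± 11557 (SD, n = 4 libraries each) and did not pass (log2 0.48, limma adjusted p = 0.151).

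Collecting duct genes moved both ways. Aqp2, the water channel of principal cells that vasopressin controls, read 2514, 1961, 2471 and 2114 against 4401, 3476, 4401 and 3850 (1.78-fold, SE 0.11 on the log2 scale, limma adjusted p = 0.00945). It was the only 1 of 12 principal cell genes to pass, against 7.57% of all genes in either direction. This held in the fit of all 8 libraries and in 7 of the 8 fits without 1 of them. Without CMV-siRE replicate 4 a further gene of the list passed. Of 12 intercalated cell genes, 4 fell and 1 rose, with a median of -0.41, beside 7.57% of all genes in either direction; none passed without CMV-scrR replicate 4. Slc4a9, an anion exchanger of the acid-base cells, fell from 4569 ± 340 to 3100 ± 119, and Atp6v0d2, a proton pump subunit, from 1209 ± 38.4 to 815 ± 85.0 (SD, n = 4 libraries each; limma adjusted p = 0.0116 and 0.0139). Insrr, a receptor that senses alkali, fell 1.61-fold and the pump subunit gene Atp6v1b1 1.37-fold. Aqp6, the intracellular channel of the same cells, rose 1.44-fold, so the list did not move as a block. Slc4a9 and Atp6v0d2 were lost only without CMV-scrR replicate 4 (adjusted p = 0.054 and 0.0572), Insrr, Aqp6 and Atp6v1b1 in 5, 6 and 7 of the 8 fits (up to 0.0965, 0.117 and 0.124).

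**Figure D4:**
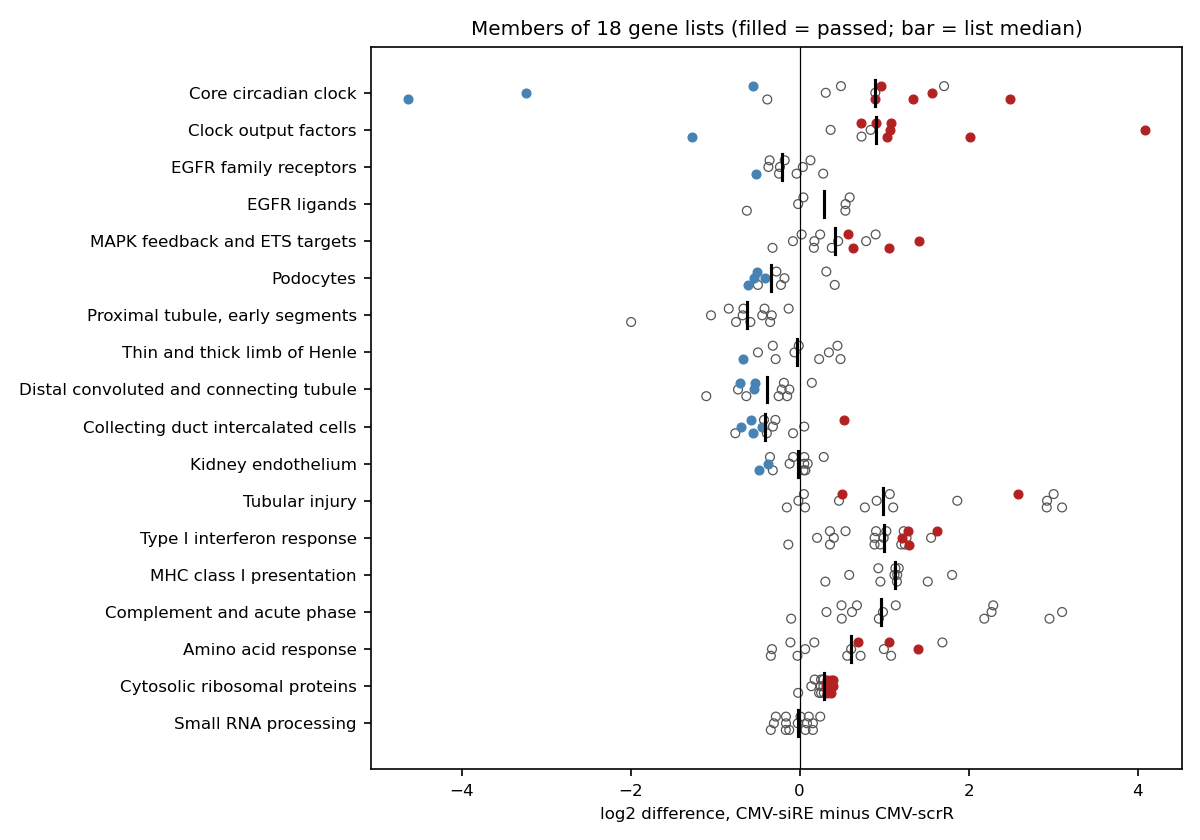
Log2 difference, CMV-siRE minus CMV-scrR (x axis), of every tested member of 18 gene lists; filled points passed the test and the black bar is the list median. The clock lists spread from -4.64 to 4.09, all 12 early proximal tubule genes lie below 0 unfilled, and the interferon list has a median of 0.99 with 4 filled points.

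In the vascular and mural lists 4 genes passed, all lower. Of 12 endothelial genes, 2 fell and none rose, against 4.36% lower of all genes, but 6 of the 12 differences were positive and 6 negative, with a median of -0.02. Flt1, a VEGF receptor, read 1919, 1870, 1720 and 1755 against 1251, 1368, 1299 and 1280, and Tek, the angiopoietin receptor, fell 1.29-fold. Of 10 mesangial, pericyte and smooth muscle genes, 2 fell, against 4.36% lower of all genes. They were Myh11, the smooth muscle myosin, by log2 -0.65 (limma adjusted p = 0.0207) and Rgs5, a pericyte regulator of G protein signalling, by -0.64 (0.0131). The values of Flt1, Myh11 and Rgs5 did not overlap between the groups. Flt1 (limma adjusted p = 0.0125) and Rgs5 were lost only without CMV-scrR replicate 4 (0.0531 and 0.054), Myh11 without CMV-scrR replicate 2, 3 or 4 (up to 0.0745) and Tek in 6 of the 8 fits (up to 0.0962). No endothelial or mural gene passed without CMV-scrR replicate 4, and without CMV-siRE replicate 3 the endothelial count was 3 lower and 1 higher. None of 12 fibroblast and collagen genes passed, and the list's median of -0.24 had no stable sign: leaving out control replicate 2 gave 0.17, leaving out CMV-siRE replicate 3 gave 0.11, and leaving out control replicate 3 gave -0.48. In the renin and angiotensin list 1 of 10 genes fell, against 4.36% of all genes. Agtr1a, the angiotensin receptor, fell by 1.27-fold and was lost in 7 of the 8 fits (up to 0.123).

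Tubular injury and acute phase genes were high in some CMV-siRE libraries and not in others. The list median for injury was 0.99 (0.47 without CMV-siRE replicate 4 and 1.48 without replicate 3), 14 of 16 genes had positive differences and 2 passed, against 3.21% higher of all genes. None passed without CMV-scrR replicate 2, 3 or 4 or CMV-siRE replicate 1. Il34, a macrophage growth factor made by injured tubules, read 95.4, 52.7, 36.0 and 51.4 against 427, 191, 179 and 870 (5.98-fold, SE 0.50 on the log2 scale, limma adjusted p = 0.0252), and Krt8, a keratin of simple epithelia, rose 1.42-fold. Lcn2, the lipocalin NGAL, read 11.4 to 25.3 in the controls and 534, 44.3, 15.4 and 1420 with CMV-siRE. Fga, the fibrinogen alpha chain, read 458 to 872 in the controls and 8475, 2293, 521 and 39611 with CMV-siRE, and Havcr1, the injury marker KIM-1, read 4.28 to 34.9 and then 64.1, 20.0, 0.811 and 205. In Lcn2 and Fga replicates 1 and 4 were far above the controls. In Havcr1 replicate 4 was far above them and replicate 1 less so. In all 3 genes replicate 3 was not above the controls, and none passed (limma adjusted p = 0.136, 0.116 and 0.617). Fgg behaved as Fga did, at 276 to 790 and then 6357, 2305, 465 and 27472. Fibrinogen is also made by hepatocytes, and both genes belong to the hepatocyte list given with the markers of other cells. The complement gene C3 read 944 to 3700 in the controls and 21104, 14583, 1221 and 39405 with CMV-siRE (log2 2.19, SE 0.95). None of 14 complement and acute phase genes passed with all 8 libraries. Without CMV-siRE replicate 3, 9 injury genes and 10 complement and acute phase genes passed as higher. Of all genes, 976 of 14627 did in that fit. Il34 was lost without CMV-scrR replicate 2, 3 or 4 or CMV-siRE replicate 1 (adjusted p up to 0.0813), and Krt8 in 5 of the 8 fits (up to 0.0809). The same replicates 1 and 4 were those with low Slc34a1, Lrp2 and Egf.

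**Figure D5:**
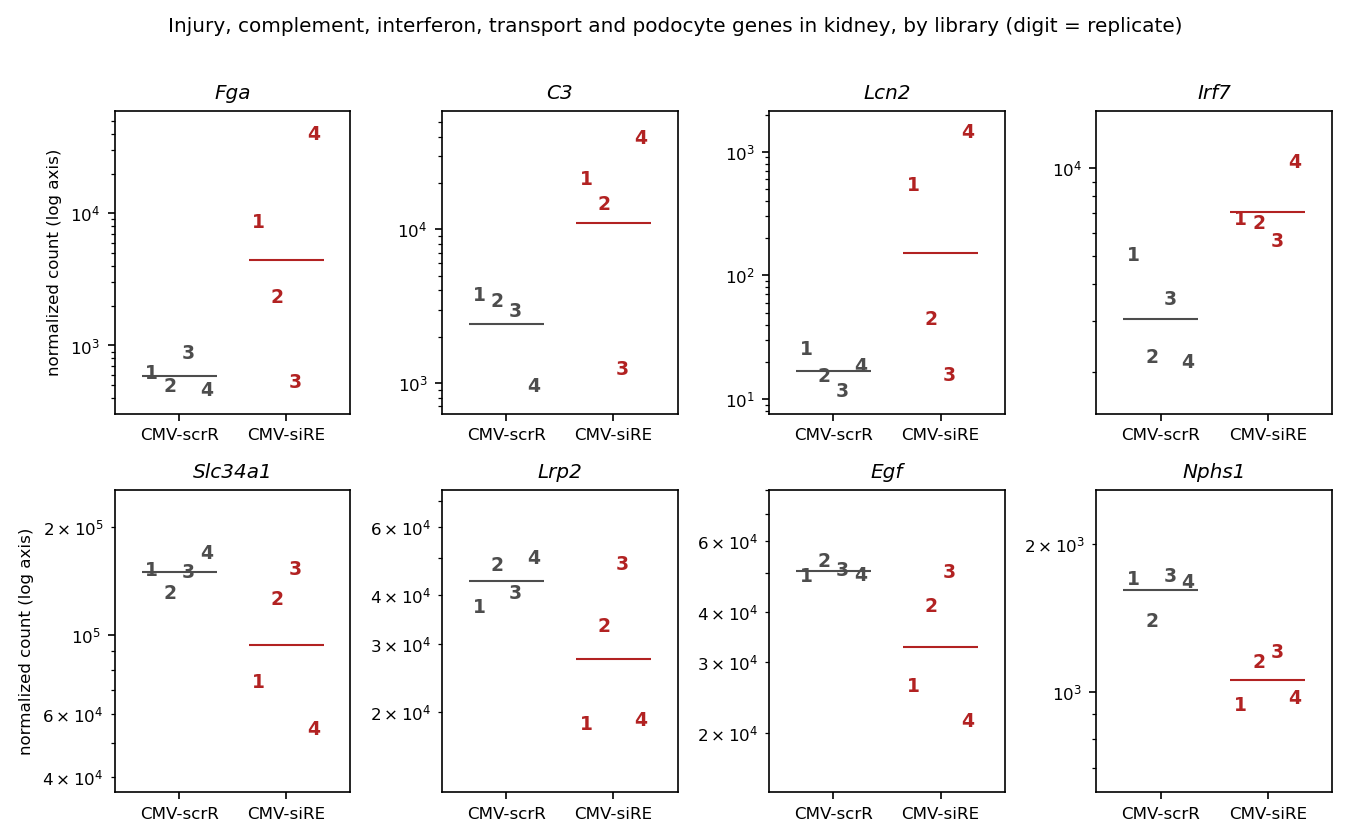
Normalized counts (y axis, log scale) of 8 genes in each library, with CMV-scrR in grey and CMV-siRE in red; the digit is the replicate and the line the geometric mean. CMV-siRE replicates 1 and 4 hold the highest Fga, C3 and Lcn2 and the lowest Slc34a1, Lrp2 and Egf, replicate 3 lies with the controls in these 6 genes, and Nphs1 is below the controls in all 4.

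Interferon-stimulated genes leaned upward with few passing. Of 21 type I interferon genes, 20 had positive differences, the median was 0.99 and 4 rose, against 3.21% of all genes. Isg15, a ubiquitin-like modifier, read 711, 218, 384 and 184 in the controls and 982, 939, 765 and 1433 with CMV-siRE (3.09-fold, SE 0.39 on the log2 scale, limma adjusted p = 0.0394), without overlap though control replicate 1 came close. Irf7, the transcription factor that amplifies the response, rose 2.32-fold, Oas1a, an RNA-sensing synthetase, 2.45-fold, and Bst2 (tetherin) 2.44-fold. The RNA sensor Dhx58 rose 1.83-fold, the only 1 of 14 nucleic acid sensors to pass, against 7.57% of all genes in either direction. The promoter window of Isg15 is printed because its interferon response elements overlap. Capitals mark 3 matches of GAAANNGAAA, which start 78, 72 and 66 bases before the gene start; the sequence is RefSeq GRCm38.p6 on the gene's strand.
Isg15 (chr4:156200769-156201068, minus strand): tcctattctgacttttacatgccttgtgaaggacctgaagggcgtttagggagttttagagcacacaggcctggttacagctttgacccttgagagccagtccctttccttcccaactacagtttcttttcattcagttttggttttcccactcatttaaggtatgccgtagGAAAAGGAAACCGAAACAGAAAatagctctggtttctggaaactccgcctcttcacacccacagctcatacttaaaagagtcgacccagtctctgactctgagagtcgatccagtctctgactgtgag

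Of the 21 genes, 14 matched a window and 8 of those held the element on either strand, against 3.44% of all 32851 windows. Isg15, Irf7, Oas1a and Dhx58 each passed in only 2 of the 8 fits without 1 library and Bst2 in 1 (adjusted p up to 0.104, 0.107, 0.124, 0.0983 and 0.126). The list count was 9 without CMV-scrR replicate 1, the control with the highest Isg15, was 7 without CMV-siRE replicate 3, and was 0 without any other single library. The 18 interferon gamma genes and GTPases all had positive differences, with a median of 1.11 (0.68 without CMV-scrR replicate 4 and 1.46 without CMV-siRE replicate 3), and none passed. Tgtp1, one of those GTPases, shows the spread, at 19191, 3614, 20647 and 2201 in the controls and 29069, 35788, 9272 and 12539 with CMV-siRE. The 11 MHC class I genes were also all positive, with a median of 1.13 and none past the test. H2-K1, a class I heavy chain, read 12010 to 33841 in the controls and 71082, 47067, 14941 and 35296 with CMV-siRE. The 8 class II genes had a median of 0.86 (0.58 without CMV-siRE replicate 1 and 1.33 without replicate 3) and none passed, H2-Ab1 among them (log2 0.83, SE 0.53). Without CMV-siRE replicate 3, 4 of the 18 gamma genes, 7 of the 11 class I and 5 of the 8 class II genes passed as higher. Of all genes, 976 of 14627 did in that fit. Socs3, a feedback inhibitor of cytokine receptors, rose 2.40-fold with all libraries and was lost in 6 of the 8 fits (up to 0.0983).

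Genes of the responses to amino acid shortage and to oxidants were higher where they passed. Of 15 genes of the amino acid response, 3 rose and none fell, against 3.21% higher of all genes; the list median was 0.61. The count was 0 without CMV-scrR replicate 4 and 6 without CMV-siRE replicate 3. Asns, asparagine synthetase, read 57.1, 69.4, 53.8 and 58.2 against 207, 154, 103 and 195 (2.65-fold, limma adjusted p = 0.0162). The transcription factors Atf4 and Ddit3 (CHOP) rose 1.62-fold and 2.09-fold. They are shared with the list of 16 endoplasmic reticulum stress genes, in which Xbp1, the factor activated by IRE1, also rose, 1.58-fold. Slc1a4, a neutral amino acid transporter outside those lists, read 100, 163, 119 and 106 against 456, 434, 259 and 518 (3.34-fold, limma adjusted p = 0.00879) and passed in all 8 fits. Asns was lost without CMV-scrR replicate 3 or 4 (adjusted p up to 0.0639), Atf4 in 4 of the 8 fits (up to 0.0888), and Ddit3 and Xbp1 in 7 (up to 0.0909 and 0.0979).

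Of 13 NRF2 targets, which respond to oxidants and electrophiles, 3 rose and none fell, against 3.21% higher of all genes. The count was 1 without CMV-scrR replicate 4 and 5 without CMV-siRE replicate 3. Osgin1, an oxidative stress-induced growth inhibitor, read 744, 605, 782 and 678 against 1430, 1637, 1672 and 1281 (2.14-fold, SE 0.11 on the log2 scale, limma adjusted p = 0.00323) and passed in all 8 fits. Gclm, a subunit of the enzyme that starts glutathione synthesis, rose 1.52-fold and was lost only without CMV-scrR replicate 4 (0.0599), and Gstm1, a glutathione transferase, rose 1.32-fold and was lost in 6 fits (up to 0.116). Among 13 cytochromes P450 of families 1 to 3, 2 rose, against 3.21% of all genes: Cyp2a5 2.94-fold, from 617 ± 201 to 1869 ± 844 (SD, n = 4 libraries each), and Cyp3a13 2.41-fold. They were lost in 4 and 7 of the 8 fits (up to 0.0833 and 0.0978). Cyp4b1, of another family, rose 2.00-fold and was lost in 4 fits (up to 0.087).

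The Nat8 family of N-acetyltransferases lies in a cluster of near-identical copies, and how its reads were shared between copies is not given in the sources used here, so single members are uncertain. Nat8f5 read 23.2, 23.7, 39.1 and 37.6 against 132, 121, 155 and 192 (4.80-fold, SE 0.24 on the log2 scale, limma adjusted p = 0.0035). Nat8f7 rose 3.41-fold, Nat8f3 2.23-fold and Nat8f2 1.53-fold, and the first 3 of these 4 passed in all 8 fits; Nat8f2 was lost in 7 (up to 0.114). The family, 4 of 8 higher beside 3.21% of all genes, was picked after its values were seen.

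Single genes of varied function also passed in all 8 fits without 1 library. Slc16a1, the lactate and ketone transporter MCT1, read 2045, 1639, 1726 and 1848 against 745, 765, 481 and 703 (2.73-fold lower, SE 0.15 on the log2 scale, limma adjusted p = 0.00296). Avpr1a, the V1a vasopressin receptor, read 571, 600, 498 and 578 against 197, 242, 235 and 205 (2.55-fold lower, limma adjusted p = 8.91e-04). Ddc, the decarboxylase that makes dopamine in the proximal tubule, read 3107, 3132, 3034 and 3134 against 1393, 1562, 1602 and 1582. In these 3 genes the spread within a group was small beside the gap, CMV-siRE replicate 3 included. Ppard, a nuclear receptor for fatty acids, fell 2.86-fold, Rhobtb1, an atypical small GTPase, 2.95-fold, Arhgef10l, a guanine nucleotide exchange factor, 2.46-fold, and Mmp15, a membrane metalloprotease, 2.83-fold. Tspan4, a tetraspanin, was higher to a like extent, at 680, 554, 565 and 606 against 1944, 1790, 1491 and 2246 (3.08-fold, limma adjusted p = 8.18e-04). These genes are no list of their own. Of 14 organic anion and cation transporters and 16 genes of gluconeogenesis and glycolysis, none passed. In CMV-GE11-siRE libraries 1 to 4, Slc16a1 read 1693, 702, 1730 and 731. Avpr1a read 572, 219, 581 and 204, and Tspan4 617, 1562, 642 and 2714. In these 3 genes replicates 1 and 3 lay near the controls and replicates 2 and 4 near the CMV-siRE libraries, as for Dbp and Arntl. Replicate 4 lay between the groups in Ddc, Arhgef10l and Mmp15, as did replicates 1 and 3 in Ddc, replicate 1 in Arhgef10l and replicate 2 in Mmp15. The hour of harvest is not given, and the part of the clock in these differences was not tested.

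Of 12 genes of folate and one-carbon metabolism, a list picked after its values were seen, 1 rose, 2 fell and 9 did not pass. Of all genes 3.21% rose and 4.36% fell. Amdhd1, which breaks down histidine, read 159, 119, 106 and 102 against 17.2, 9.87, 34.1 and 28.1 (5.70-fold lower, SE 0.36 on the log2 scale, limma adjusted p = 0.0118). Bhmt, which remethylates homocysteine from betaine, read 848, 535, 537 and 565 against 147, 204, 251 and 121 (3.49-fold lower, 0.00879), and both passed in all 8 fits. Mthfd1l, a mitochondrial folate enzyme, rose 2.27-fold and was lost in 7 fits (up to 0.12). In fat oxidation, 2 of 19 genes rose and none fell, against 3.21% higher of all genes, and the list median was 0.40. Cpt2 and Slc25a20 of the mitochondrial carnitine shuttle rose by 1.35-fold and 1.43-fold. They were lost in 6 and 7 of the 8 fits (up to 0.098 and 0.104). Of 18 cholesterol synthesis genes and 12 of fatty acid synthesis, none passed.

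In the hypoxia list of 14 genes, 2 rose and 1 fell, beside 3.21% higher and 4.36% lower of all genes. Bnip3, a mitophagy receptor, read 1780, 1910, 1829 and 2024 against 3123, 2813, 2913 and 3671 (1.65-fold, limma adjusted p = 0.00879) and passed in all 8 fits, and Pfkfb3, a regulator of glycolysis, rose 1.76-fold. Car9, carbonic anhydrase IX, fell 1.99-fold, so the targets of this pathway did not share a direction. Pfkfb3 and Car9 were lost in 6 and 4 of the 8 fits (up to 0.0925 and 0.0855). Among 12 vitamin D and phosphate genes, 9 differences were negative, with a median of -0.27, and up to 4 genes passed as lower without 1 library. With all 8 libraries none fell and 2 rose, against 3.21% higher of all genes. Cyp24a1, which inactivates vitamin D, rose 1.91-fold and Slc20a1, a phosphate transporter, 1.67-fold. They were lost in 6 and 5 fits (up to 0.0911 and 0.0904). Of 10 genes of osmotic stress, 2 rose and 1 fell, beside 7.57% of all genes in either direction. Akr1b3 (aldose reductase, which makes sorbitol) rose 1.51-fold, Aqp2 is given above, and Ranbp3l fell 1.73-fold. Akr1b3 and Ranbp3l were lost in 7 and 6 fits (up to 0.113 and 0.0855).

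Other genes with large differences were less stable. Plac8 read 363, 221, 381 and 195 against 2151, 1154, 393 and 2654 and Ccn1, a matricellular protein, 225 to 378 against 880, 982, 402 and 1931. In both genes CMV-siRE replicate 3 lay just above the controls. Serpina10, an inhibitor of coagulation proteases, rose 5.52-fold, Lpo, lactoperoxidase, 4.73-fold, and Acat3, a thiolase, 3.09-fold. Lower genes of this kind were Insc, a spindle orientation adaptor, by 3.61-fold, Palm3, a paralemmin, by 3.02-fold, Fcamr, a receptor for IgM and IgA, by 3.06-fold, Itgb6, integrin beta 6, by 2.75-fold, and Myom1, a myomesin, by 2.60-fold. These 10 genes passed in between 1 (Plac8, Ccn1, Serpina10 and Myom1) and 6 (Palm3) of the 8 fits without 1 library, with adjusted p values up to 0.134 (Myom1). The identifier with the largest rise, ENSMUSG00000116207.1, read 0, 5.88, 0 and 0 against 292, 19.7, 11.0 and 300. It overlaps the gene Nnt, the mitochondrial transhydrogenase, which read 3262 ± 72.2 against 2648 ± 812 (SD, n = 4 libraries each) and did not pass, so reads may be split between the 2 and the value is uncertain; it was lost without any 1 control (up to 0.0958) and was too low to test without any 1 CMV-siRE library.

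Ribosomal protein genes were higher by small amounts. Of 18 genes, 7 rose (3.21% of all genes did) and none fell, with a median of 0.28. All CMV-siRE libraries lay above all controls in 15 of them (8.39% of all genes). Rpl18 read 2759, 2743, 2469 and 2778 against 3722, 3754, 3250 and 3435, and Rpl3, Rps14 and Rps18 rose 1.29-fold, 1.30-fold and 1.31-fold. The list median stayed positive under scaling by the column total (0.30) and by the total without mitochondrial genes (0.27), where 7 and 5 genes passed. Of all genes, 341 of 14755 and 322 of 14754 passed as higher under these scalings. Leaving out 1 library gave counts from 0 to 7, 0 without CMV-scrR replicate 2, 3 or 4 or CMV-siRE replicate 1 or 2. Mitochondrially encoded genes took 12.57, 11.72, 11.79 and 12.51% of the column total in the controls and 9.60, 9.73, 11.68 and 10.12% with CMV-siRE. All 4 values were lower than every control, the one of replicate 3 by little (difference -1.87 percentage points, exact two-sided permutation p = 0.0286, the smallest possible, and 0.0571 adjusted over the 2 exact tests made). Of the 13 genes 1 passed, against 7.57% of all genes in either direction. It was mt-Nd6, which fell 1.52-fold and was lost in 7 of the 8 fits (up to 0.126). None of 16 nuclear genes of oxidative phosphorylation passed, with a median of 0.04.

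The machinery on which a delivered siRNA and its vesicles depend was covered by lists of small RNA processing and of extracellular vesicles. None of 15 small RNA processing genes passed, with a median of -0.02, and 2 passed as lower without CMV-siRE replicate 3. Ago2, the slicing Argonaute, read 1864, 2124, 1854 and 1976 against 1511, 1618, 1757 and 1548, below every control but not past the test (log2 -0.28, SE 0.08, limma adjusted p = 0.061). Tnrc6a, an Argonaute partner, had a log2 difference of -0.34 (SE 0.18). Of 15 extracellular vesicle genes 2 rose, against 3.21% of all genes, the membrane scaffold Flot1 2.04-fold and the tetraspanin Cd9 1.24-fold, which were lost in 6 and 7 of the 8 fits (up to 0.0929 and 0.116). Lamp2 read 14524 ± 506 against 14340 ± 590 (SD, n = 4 libraries each; log2 -0.02). Rab5a, an early endosome GTPase, fell 1.25-fold and was lost in 7 fits (up to 0.114).

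Markers of other cells differed between libraries. The 18 hepatocyte markers, none at 0 in all 8 libraries, summed to 5183 to 8006 in the controls and 22423, 17474, 8761 and 90138 with CMV-siRE, all above the controls. Without the 3 fibrinogen chains the sums were 4322 to 6650 and then 6243, 12502, 7668 and 10635, so that replicate 1 lay within the control range. Alb, the gene for albumin, which defines hepatocytes, read 227, 209, 147 and 255 against 130, 187, 338 and 197, with the groups overlapping (log2 -0.03, SE 0.28). None of 12 hepatocyte genes tested passed, and 5 did as higher without CMV-siRE replicate 3, against 976 of all 14627 genes in that fit. CMV-siRE replicate 2 held the highest adipocyte markers: the 12 markers, none at 0 in all 8 libraries, summed to 5180 to 9726 in the controls and 4353, 29957, 5493 and 5376 with CMV-siRE, and none of 10 tested passed. Its Adipoq, the fat cell hormone adiponectin, was 1356, against 0 to 136 elsewhere. T and natural killer cell markers (16) summed to 394 to 753 in the controls and 3089, 731, 442 and 648 with CMV-siRE, and B and plasma cell markers (13) to 455 to 639 and then 2768, 505, 465 and 932, so replicate 1 was highest in both. Of 13 macrophage genes 1 rose, the Fc receptor Fcgr1, by 2.16-fold, and of 6 neutrophil genes 1, S100a8, by 3.42-fold, against 3.21% higher of all genes. They were lost in 4 and 7 of the 8 fits (up to 0.0846 and 0.12). Of 9 B cell genes 1 fell, against 4.36% of all genes. Cd79a of the B cell receptor fell by 2.12-fold, and it was lost in all 8 fits (up to 0.127). Erythroid markers (12) summed to 14862 to 19396 in the controls and 15494, 8021, 8022 and 6036 with CMV-siRE, and 1 of 10 tested fell: the alpha globin gene Hba-a2, by 2.27-fold, was lost in 7 of the 8 fits (up to 0.126). The part of these cells in the kidney gene differences was not tested.

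The remaining stress lists held genes that passed in opposite directions or alone. Of 13 heat shock chaperones, Cryab, a small chaperone, rose 1.75-fold and Dnaja1, a co-chaperone of HSP70, fell 1.51-fold. Of 13 glucocorticoid and metallothionein genes, Fkbp5 rose and Klf9, a Krueppel-like factor, fell 1.77-fold, so the list did not share a direction. In each of these lists 2 of 13 genes passed, against 7.57% of all genes in either direction. Among 13 immediate early genes only Jun rose, 1.96-fold, in the fit of all 8 libraries, against 3.21% higher of all genes. Cryab, Dnaja1, Klf9 and Jun were lost in 5, 7, 6 and 7 of the 8 fits without 1 library (adjusted p up to 0.0861, 0.116, 0.0965 and 0.13). None of 18 cell cycle genes and none of 14 p53 targets passed. Among genes known to differ between male and female kidneys 1 of 12 rose, Cyp4b1, given above, against 3.21% of all genes. Kap, the androgen-regulated protein, varied within both groups, at 5038, 37830, 7196 and 15435 against 24798, 11189, 39205 and 20565. In the list of Y-linked and X-inactivation genes 1 was high enough to test. That gene, on the Y chromosome, read 26.3 to 44.3 across the 8 libraries and did not pass. The sex of the mice was not tested.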

How the data were processed

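Total RNA was extracted with TRIzol and made into TruSeq libraries, per the labels' protocols. The deposited kidney table holds normalized counts per gene, a signal scaled by the authors; DESeq2 is named in the submitters' processing notes, and for the aligner, counter and genome build nothing is given in the sources used here. Whole reads could not be recovered from the values, so no count model was used and depth is unknown beyond the column totals. Of 36047 identifiers, 35968 had a symbol in the reference tables, and positions come from GENCODE M21 (GRCm38).

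Genes at 10 or more in at least 4 of the 8 libraries were tested with limma 3.58.1 (R 4.3.3; moderated test with a trend, on log2(value + 1), Benjamini-Hochberg adjustment over 14740 genes, threshold 0.05) on these 8 libraries, without covariates. The single-value tests were exact two-sided permutation tests. The script was tested on simulated data. Alternatives were another pseudocount (0.1), other filters (none, or 50), no trend, all 12 kidney libraries, a replicate block, 2 scalings, Dbp or Ddx3y as a covariate, and leaving out each library.

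The comparison and the 62 gene lists were chosen with earlier results of these data known. By rule, the text names the 15 genes with the largest change each way among those that passed with a mean of at least 50, and up to 4 members of each list; 29 of the 148 genes named were added after their values were seen.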

Additional observations from a re-analysis of the deposited data

Results flagged for a closer look

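Among 304 groups of 4 libraries checked, 12 held 1 library far from the other 3 (by the gap to the nearest library over the group's range, at Dixon's 95% critical value); chance flags about 1 in 20 groups. CMV-siRE replicate 2 stood apart in the fat markers Adipoq, at 1356 normalized counts, and Cfd, at 10274. CMV-siRE replicate 1 stood apart in globins, with a globin share of 0.0772% of the column total and Hba-a2 at 4054, near the controls, while replicates 2 to 4 read 1347 to 1669 for Hba-a2. CMV-siRE replicate 3 stood apart in Bst2, at 1863, and Socs3, at 114, both below the other CMV-siRE libraries. Among the controls, replicate 1 stood apart in Bhmt (848), replicate 2 in Nphs1 (1389) and in the identifier ENSMUSG00000116207.1 (5.88, the others at 0), replicate 3 in Ier3 (452) and Rpl18 (2469), and replicate 4 in Jun (656). Leaving out CMV-siRE replicate 1 deepened the difference of Hba-a2 to -1.53 on the log2 scale, and it was then still past the test.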

How the results depend on the processing

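The count of 1116 genes was 1092 with a pseudocount of 0.1, 1322 with a minimum of 50, 842 scaled by the column total, 1027 scaled without mitochondrial genes and 1142 with Ddx3y as a covariate. It was 707 with no filter, 440 with no trend, 0 with all 12 kidney libraries, 37 with all but CMV-GE11-siRE replicate 4 (chosen after seeing the data), 0 with Dbp as a covariate (2107 at an unadjusted p under 0.05) and 60 to 2189 without 1 library. The cause of these shifts was not tested. With the replicate number as a block the count was 50; the numbers do not pair the libraries (correlations of same-numbered libraries -0.002, -0.03, 0.09 and -0.08), so the block bears on the number only, and 1 of the 4 controls correlated best with its own number. Of the 113 named genes that passed, the 2 scalings kept 91 and 98, the block 23 and the fit without a trend 57, and none reversed in these. Egfr stayed between -0.13 and 0.04 without 1 library and was -0.42 with Dbp as a covariate; the mitochondrial share difference stayed between -2.33 and -1.64 percentage points without 1 library. Dbp separates the groups without overlap, and with it as a covariate 14 of 112 genes changed sign, none past the test: Ccnd1 -0.11, Nfil3 1.20, Cry2 -1.10, Nr1d2 -0.70, Tef -0.997, Hlf -1.30, Palm3 1.09, Gstm1 -0.11, Cyp2a5 -0.96, Cyp4b1 -0.031, Aqp6 -0.15, Tek 0.14, Hba-a2 0.61 and Nat8f2 -0.20. Dbp itself has no value in that fit. With 4 libraries a group and no read counts, small differences of low genes cannot be resolved.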
